A study of Mus musculus with 17 samples.

Results

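The p53 pathway was followed here through 33 genes: Trp53, which encodes the transcription factor p53, and 32 genes known as its direct targets. All 33 were found, by gene symbol, among the 37620 genes of the expression table. None of the 24 cell cycle genes given beside it below is in the list, while 7 members are genes of growth arrest. The genes were chosen by name as p53 targets at a time when the difference between TGF-β1-treated and control wild-type macrophages in these libraries was already known, with Phlda3 and Trp53inp1 among the genes called. Members were in that sense selected on the wild-type TPM values, so the counts and values of that comparison are a description and support nothing.

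The study asked which genes accompany the conversion of macrophages to myofibroblast-like cells under TGF-β1 and its signal transducer Smad3. Marrow cells of C57BL/6J mice were grown into macrophages in 50 ng/ml M-CSF, a macrophage growth factor, for 7 days, and the treated cultures then received 5 ng/ml TGF-β1 for 5 days. The sample labels do not say whether controls were kept in culture for those 5 days. If they were not, time in culture cannot be told apart from TGF-β1 in any comparison of treatments. The 17 libraries fall into 5 wild-type control, 4 wild-type TGF-β1, 5 Smad3-knockout control and 3 Smad3-knockout TGF-β1 libraries. The description of the study speaks of single cells sorted on F4/80 and α-SMA, while its protocol extracts RNA from a cell suspension, so whether a library stands for 1 cell or many is not settled, and no label ties a library to a sorted fraction. All libraries carry the same text on treatment, and the group of each was taken from its own title. The sex and age of the mice, the knockout allele and the number of animals are not given, so the tests measure the spread between libraries, which may be technical.

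p53 is held low in resting cells by Mdm2, a ubiquitin ligase that sends it for degradation. When DNA damage or other stress frees it from Mdm2, p53 activates genes that halt division, favour cell death, repair DNA and adjust metabolism. It also activates Mdm2, its own inhibitor, which closes a feedback loop. Because this control acts mainly on the protein, the mRNA of Trp53 tells little about p53 activity, and the targets are the usual readout.

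The libraries were sparse and the targeted gene did not follow the genotype labels. Smad3 was listed at 0, 0.01, 0, 15.4 and 11.5 TPM (a transcript level corrected for length and for the total of the library) in wild-type controls. In the 4 wild-type libraries given TGF-β1 it was listed at 0. It was at 0, 0.27, 1.93, 0 and 0 TPM in the controls labelled knockout, and at 6.18, 0.01 and 22.3 TPM in the TGF-β1 libraries labelled knockout. Under TGF-β1 the libraries labelled knockout were thus higher, by 2.47 on the log2(TPM + 1) scale (exact two-sided permutation p = 0.0286, the smallest these group sizes allow). That p sets the labelled knockout library at 0.01 TPM above the wild-type libraries listed at 0, a gap too small to be told from 0 here. The higher value thus rests on the libraries at 6.18 and 22.3 TPM. In controls the libraries labelled knockout were lower by a difference of -1.16 (exact permutation p = 0.365). The knockout groups are therefore called "labelled knockout" throughout, and every direction drawn from them rests on the label. Between 7269 and 10307 genes reached 1 TPM per library, and of genes averaging 10 to 50 TPM a median of 8.78% were listed at 0 in a library. A 0 is therefore given here as listed, not as absence. All 8 macrophage markers searched were detected, 6 of them at 1 TPM or more in every library. Of markers of other cells, 7 of 8 neutrophil, 5 of 8 fibroblast, 4 of 6 endothelial, 2 of 6 dendritic cell, 6 of 8 lymphocyte, 4 of 6 erythroid and 4 of 6 mast cell and basophil genes were at 0 in all libraries. The endothelial marker Vwf was at 1 TPM or more in 16 libraries of all groups (mean 20.6 TPM) and Kdr in 10. The neutrophil marker S100a8 was at 132 TPM in 1 wild-type control and at up to 34.6 TPM in 2 controls labelled knockout, and at 0.14 TPM or less elsewhere. The part of these cells in the members' values was not tested. Fewer cells with a transcript and less of it per cell cannot be told apart in these values.

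The promoter sequences show which members carry the letters that p53 binds near their start. RefSeq windows reaching from 250 bases before to 50 bases after a gene's start (build GRCm38.p6) were available for 25 of the 33 members. The p53 half-site, a decamer that is its own reverse complement and was searched by its consensus with no mismatch, was found in 11 of these 25 genes (44%) and in 2582 of all 27025 genes with a window (9.55%). A half-site directly beside another decamer with at most 1 mismatch, the arrangement of a whole p53 element, was found in 3 members (12%) and in 29 of all 27025 genes (0.107%). Those 3 are Cdkn1a, Ccng1 and Rps27l, shown first because Cdkn1a and Ccng1 are central to the results below. Mdm2 and Bax follow as members with a single half-site. Capitals mark the half-site, with its neighbour where there is one, and each stretch is 60 bases written 5′ to 3′ on the gene's strand.
Cdkn1a: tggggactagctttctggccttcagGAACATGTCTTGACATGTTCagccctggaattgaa
Ccng1: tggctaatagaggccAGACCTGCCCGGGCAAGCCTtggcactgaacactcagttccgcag
Rps27l: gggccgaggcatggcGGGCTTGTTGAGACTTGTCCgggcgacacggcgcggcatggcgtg
Mdm2: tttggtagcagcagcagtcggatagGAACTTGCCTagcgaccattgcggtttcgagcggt
Bax: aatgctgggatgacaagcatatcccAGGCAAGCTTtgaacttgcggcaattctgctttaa
The Cdkn1a stretch is chr17:29090903-29090962 on the plus strand, upstream of both of its listed starts. The Ccng1 stretch is chr11:40755437-40755496 on the minus strand. The Rps27l stretch is chr9:66946281-66946340 on the plus strand and lies between its 2 listed starts. The Mdm2 stretch is chr10:117710910-117710969 and the Bax stretch chr7:45467065-45467124, both on the minus strand. In the windows of Phlda3, Gdf15, Btg2, Fas, Bbc3 and Sesn2 these letters were not found, which says nothing about p53 binding elsewhere in those genes. A match is a description of the letters, not of binding.

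Levels of the members ran from near 0 to the most abundant transcripts of the list, Cdkn1a among them. Over all libraries the highest mean was that of Cdkn1a (817 TPM), followed by Rps27l (613 TPM), Bax (481 TPM), Mdm2 (182 TPM) and Trp53 (138 TPM). These neighbours overlap widely in range, from 93.9 to 3422 TPM for Cdkn1a and from 282 to 1172 TPM for Rps27l. Only 6 members reached 1 TPM in all 17 libraries: those 5 and Ccng1. At the other end, Perp, a desmosomal protein of p53-driven death, was at 0.05 TPM in 1 library and 0 in the rest. Eda2r, a death-domain receptor of the TNF family, was at 16.2 and 1.58 TPM in 2 wild-type TGF-β1 libraries and 0 elsewhere. These 2 genes did not reach 1 TPM in at least 3 libraries and were not tested, which left 31 tested members of 12158 tested genes. Of the 31, Gdf15, Fas, Phlda3, Trp53inp1 and Ak1 (5 members) passed that filter only because TGF-β1 libraries counted toward it, since they reached 1 TPM in 0 to 2 of the 10 controls.

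**Figure D1:**
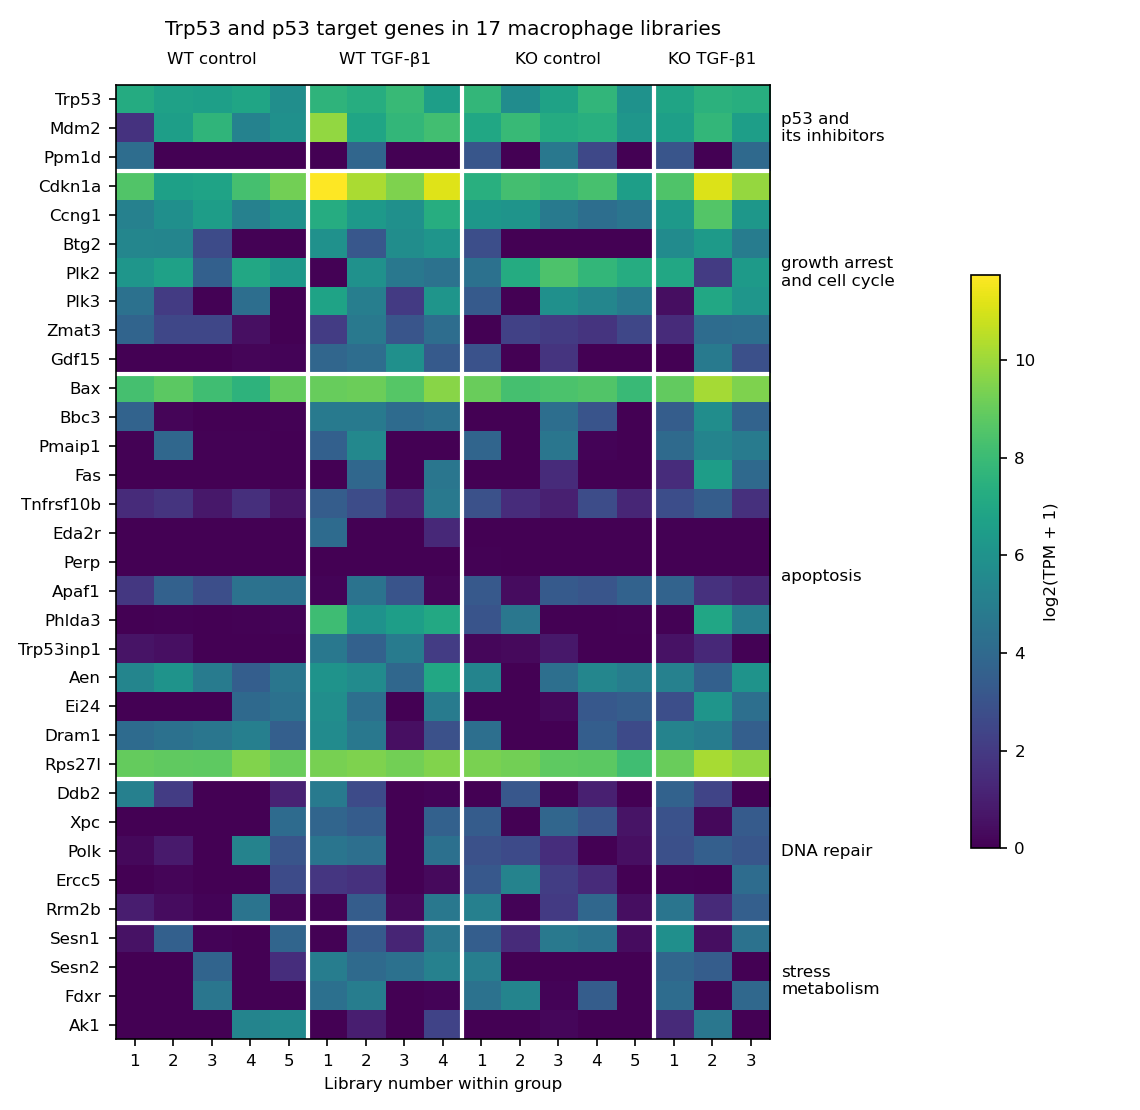
Heat map of log2(TPM + 1) for the 33 members (rows, ordered by role) in the 17 libraries (columns, by labelled group; WT, wild type; KO, labelled knockout). Trp53, Mdm2, Cdkn1a, Ccng1, Bax and Rps27l were at 1 TPM or more in every library, while most other members were at 0 in some libraries of a group and well above 1 TPM in others.

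The number of members at 1 TPM or more differed between treatments. It was 14 to 18 of 33 in wild-type controls and 19 to 30 in wild-type TGF-β1 libraries, 2 ranges that did not overlap. In libraries labelled knockout it was 14 to 24 in controls and 26 or 27 under TGF-β1, again without overlap. Their summed level ran from 1350 to 2052 TPM in wild-type controls and from 2568 to 6686 TPM under TGF-β1. It ran from 1030 to 2051 TPM in controls labelled knockout and from 2133 to 6118 TPM in their TGF-β1 libraries. The sum is carried mostly by Cdkn1a, Rps27l and Bax. For both the number and the sum, the wild-type part belongs to the comparison that was known when the list was made, and nothing is read from it. The mean log2(TPM + 1) of 24 cell cycle genes moved the same way, from 3.35 to 6.53 in wild-type controls and 6.36 to 7.66 under TGF-β1. It was 4.34 to 6.54 in controls labelled knockout and 6.75 to 7.24 under TGF-β1. The number of all genes at 1 TPM or more overlapped between treatments in both genotypes. It was 7269 to 9262 in wild-type controls and 8218 to 9974 under TGF-β1. With labelled knockout it was 8023 to 9989 in controls and 8230 to 10307 under TGF-β1.

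**Figure D2:**
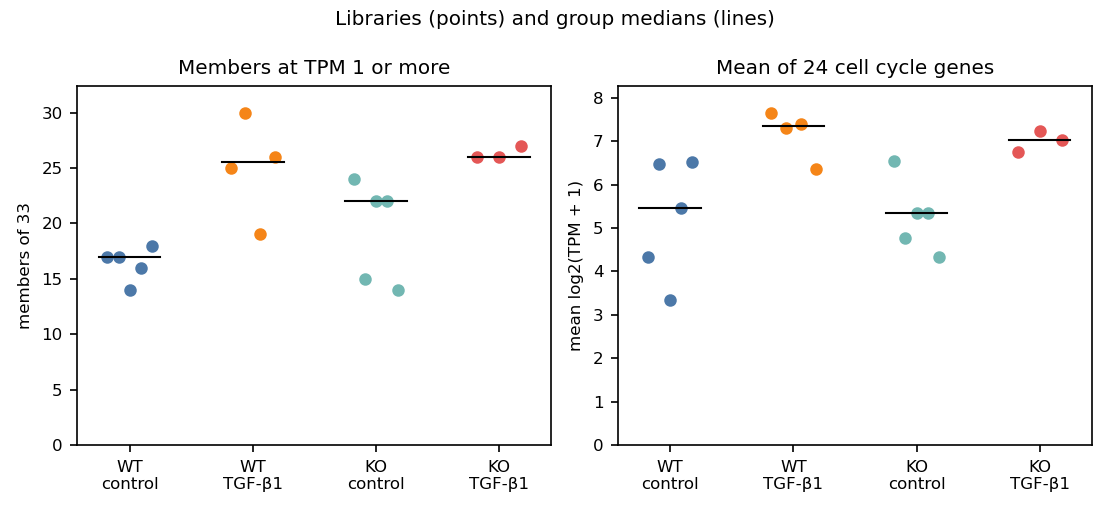
Number of the 33 members at 1 TPM or more (left) and mean log2(TPM + 1) of 24 cell cycle genes (right) per library; points are libraries and lines are group medians. Both measures have higher medians in TGF-β1 libraries of each genotype label, and the member counts do not overlap between treatments (14 to 18 against 19 to 30, and 14 to 24 against 26 to 27). The wild-type member counts belong to the comparison that was known when the list was made.

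Trp53 (ENSMUSG00000059552) itself showed no treatment difference that these libraries could resolve. It was at 146, 103, 98.5, 120 and 55.5 TPM in wild-type controls and at 200, 160, 242 and 95.3 TPM in wild-type TGF-β1 libraries. It was at 219, 52.1, 107, 214 and 63.3 TPM in controls labelled knockout and at 115, 184 and 165 TPM in their TGF-β1 libraries. The groups overlapped in both pairs, and the TGF-β1 difference in libraries labelled knockout was 0.45 ± 0.51 (log2(TPM + 1), limma estimate ± SE; adjusted p = 0.968). In wild type it was 0.72 ± 0.47.

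Mdm2, the ubiquitin ligase and feedback inhibitor, was at 2.32, 94.7, 202, 36.1 and 57.9 TPM in wild-type controls and at 903, 120, 218 and 291 TPM under TGF-β1. In libraries labelled knockout it was at 125, 240, 149, 168 and 69.9 TPM in controls and at 99.2, 218 and 93.9 TPM under TGF-β1. Of the 4 wild-type TGF-β1 libraries 2, at 903 and 291 TPM, were above all other libraries, and 1 wild-type control stood far below the rest at 2.32 TPM. The log2 difference was 2.76 ± 0.84 in wild type and -0.14 ± 0.92 in libraries labelled knockout (adjusted p = 0.998). Ppm1d, the phosphatase Wip1 that turns the p53 response off, was listed at 0 to 25.3 TPM with no pattern by group.

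Among the genes of growth arrest, Cdkn1a was the only member of the list whose TGF-β1 and control libraries did not overlap under either genotype label. It encodes p21, the inhibitor of cyclin-dependent kinases that holds cells before S phase. It was at 372, 101, 112, 307 and 600 TPM in wild-type controls and at 3422, 1233, 715 and 2329 TPM under TGF-β1. In libraries labelled knockout it was at 167, 298, 245, 319 and 93.9 TPM in controls and at 364, 2261 and 955 TPM under TGF-β1. In each genotype every TGF-β1 library was above every control, though the lowest one labelled knockout, at 364 TPM, was close to the highest control at 319 TPM. The difference was 2.76 ± 0.59 in wild type and 2.16 ± 0.64 in libraries labelled knockout. In the latter it did not pass adjustment over all genes (limma, adjusted p = 0.526). With 1 library left out, the labelled knockout difference ran from 1.515 to 2.832. The lowest adjusted p among those fits was 0.17, without the library at 364 TPM, and Cdkn1a was called in none of them.

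Btg2, an antiproliferative cofactor of mRNA decay, had the largest difference of any member in the libraries labelled knockout. Its controls were at 6.08, 0, 0, 0 and 0.02 TPM there and its TGF-β1 libraries at 50.5, 83.0 and 29.7 TPM, with no overlap. In wild type it was at 40.9, 39.5, 5.44, 0.06 and 0 TPM in controls and at 61.0, 8.17, 52.7 and 69.0 TPM under TGF-β1, so those groups overlapped. The difference was 5.10 ± 1.31 with labelled knockout (adjusted p = 0.363) and 2.56 ± 1.20 in wild type.

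Ccng1, cyclin G1, a target that feeds back on p53 through Mdm2, was at 35.2, 57.0, 92.0, 34.5 and 59.2 TPM in wild-type controls and at 155, 78.3, 57.8 and 161 TPM under TGF-β1. In libraries labelled knockout it was at 73.8, 67.0, 27.0, 18.1 and 22.5 TPM in controls and at 78.3, 385 and 73.2 TPM under TGF-β1. The 2 lowest of the latter stood at about the level of the highest control, and 1 library at 385 TPM stood apart. The difference was 1.85 ± 0.65 with labelled knockout (adjusted p = 0.709) and 0.97 ± 0.60 in wild type.

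Gdf15, a secreted stress cytokine of the TGF-β superfamily, was listed at 0, 0, 0, 0.12 and 0.07 TPM in wild-type controls and at 13.9, 17.1, 59.0 and 9.14 TPM under TGF-β1. In libraries labelled knockout it was at 6.65, 0, 2.41, 0 and 0 TPM in controls and at 0, 27.4 and 6.27 TPM under TGF-β1. The wild-type groups were separate and the labelled knockout groups were not. The difference was 4.28 ± 0.96 in wild type and 1.62 ± 1.05 with labelled knockout (adjusted p = 0.883). The latter was 2.90 without the treated library at 0 and 0.49 without the one at 27.4 TPM, and the former ran from 1.60 to 7.19 over the pseudocounts tried. Zmat3, an RNA-binding zinc finger protein, was at 12.8, 4.58, 4.70, 0.41 and 0.01 TPM in wild-type controls and at 3.31, 25.5, 7.54 and 17.1 TPM under TGF-β1. It was at 0, 3.76, 3.07, 2.41 and 4.67 TPM in controls labelled knockout and at 1.76, 16.8 and 17.9 TPM under TGF-β1. Its groups overlapped in both pairs. Plk2, a polo-like kinase, was the member with the most negative TGF-β1 difference under both labels, at -2.17 ± 1.15 in wild type and -1.87 ± 1.26 with labelled knockout. Plk3, a related kinase, ranged from 0 to 130 TPM and overlapped between all groups.

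**Figure D3:**
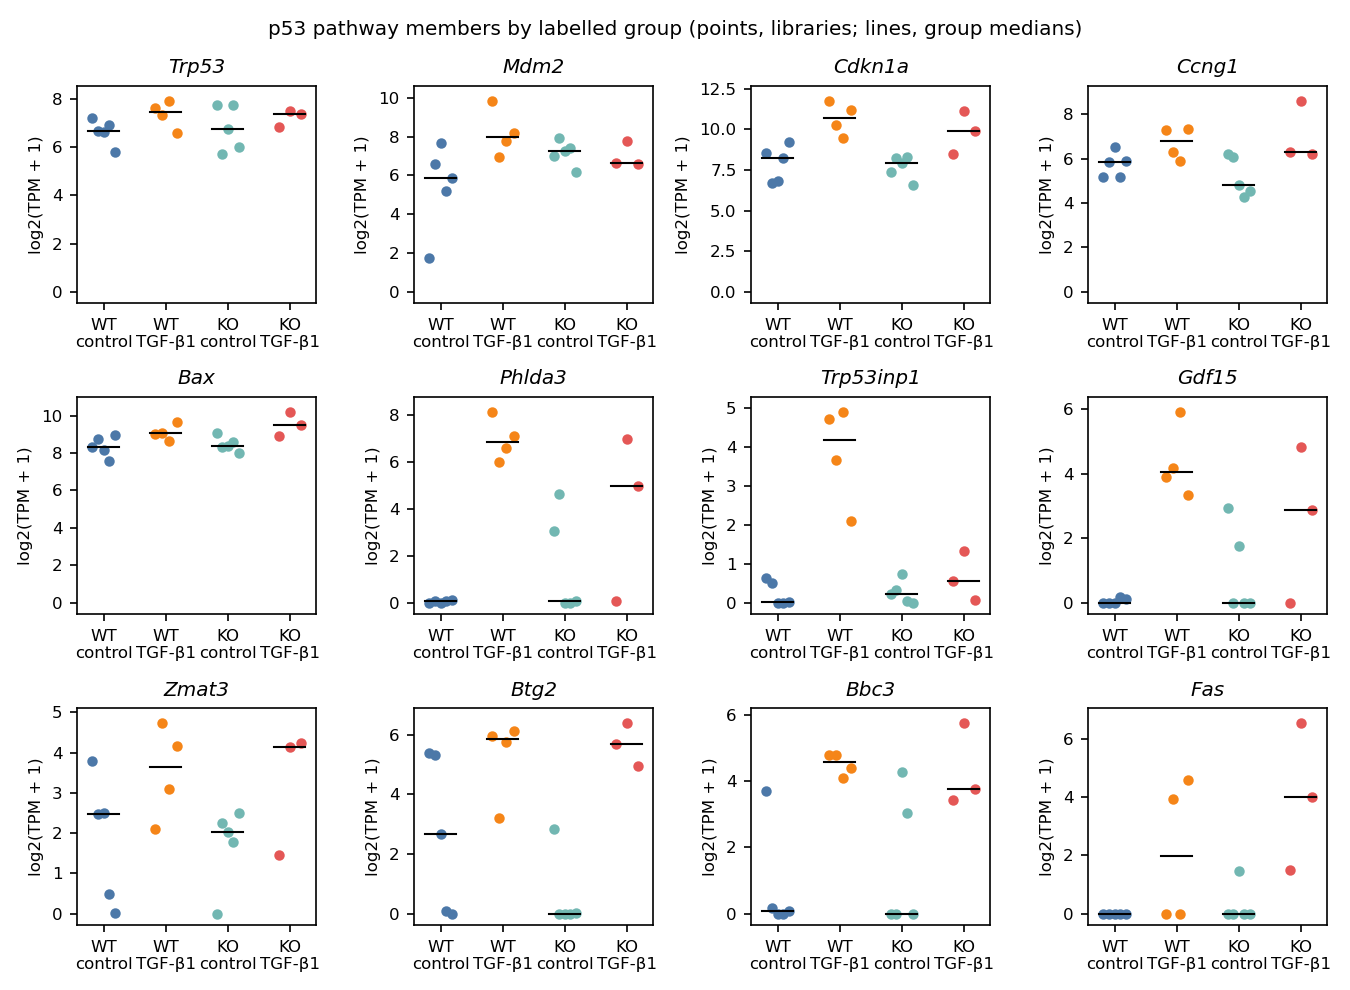
Levels of 12 members as log2(TPM + 1) per library (points) in the 4 labelled groups, with group medians (lines). Cdkn1a is higher in every TGF-β1 library than in every control of the same genotype label. Phlda3, Trp53inp1, Gdf15 and Bbc3 separate fully in wild type alone and Btg2 and Fas with labelled knockout alone. Of all genes 1.80% separate upward in wild type and 3.05% with labelled knockout. The wild-type values were known when the list was made, and Phlda3, Trp53inp1, Gdf15 and Fas passed the filter through treated libraries. No difference between the 2 TGF-β1 effects was called.

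The apoptotic members ranged from Bax, present throughout, to receptors seen in few libraries. Bax, which opens the mitochondrial outer membrane, was at 314, 435, 280, 190 and 505 TPM in wild-type controls and at 520, 542, 405 and 816 TPM under TGF-β1. In libraries labelled knockout it was at 533, 313, 336, 381 and 250 TPM in controls and at 487, 1157 and 714 TPM under TGF-β1. In each pair 1 TGF-β1 library lay within the control range. The difference was 0.76 ± 0.33 in wild type and 1.07 ± 0.36 with labelled knockout (adjusted p = 0.673).

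Bbc3, the BH3-only protein Puma, was at 12.2, 0.13, 0, 0 and 0.06 TPM in wild-type controls and at 26.9, 26.4, 16.2 and 20.1 TPM under TGF-β1. The levels with labelled knockout were 0, 0, 18.2, 7.28 and 0 TPM in controls and at 9.86, 52.8 and 12.6 TPM under TGF-β1. Its TGF-β1 libraries were all above 9 TPM under both labels, and the knockout-labelled groups overlapped through 1 control. The difference was 3.72 ± 1.11 in wild type and 2.85 ± 1.21 with labelled knockout (adjusted p = 0.775). Pmaip1, the BH3-only protein Noxa, was at 13.1, 0, 23.2, 0.09 and 0 TPM in controls labelled knockout and at 15.9, 38.8 and 28.7 TPM under TGF-β1. In wild type it was at 0.06, 14.2, 0.04, 0.04 and 0 TPM in controls and at 11.3, 43.6, 0 and 0 TPM under TGF-β1. Its differences were 3.05 ± 1.45 with labelled knockout (adjusted p = 0.832) and 1.45 ± 1.33 in wild type.

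Fas, the death receptor for Fas ligand, was listed at 0 in all 5 wild-type controls and at 0, 14.3, 0 and 23.3 TPM under TGF-β1. With labelled knockout it was at 0, 0, 1.73, 0 and 0 TPM in controls and at 1.82, 92.7 and 15.3 TPM under TGF-β1. The labelled knockout groups did not overlap, although the lowest treated library at 1.82 TPM was barely above the highest control at 1.73 TPM, and the difference was 3.74 ± 1.10 (adjusted p = 0.526).

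Phlda3 and Trp53inp1 were already known to be called in wild type when the list was made, and their wild-type values are given as a description. Phlda3, which competes with Akt for membrane lipids and so restrains survival signalling, was at 0, 0.04, 0, 0.04 and 0.07 TPM in wild-type controls and at 274, 62.6, 95.9 and 136 TPM under TGF-β1. Controls labelled knockout were at 7.17, 23.8, 0, 0 and 0.04 TPM and the treated ones at 0.04, 122 and 30.0 TPM under TGF-β1. So 2 of 5 controls labelled knockout held the transcript and 1 of 3 treated ones had almost none. The difference was 6.91 ± 1.26 in wild type and 2.44 ± 1.37 with labelled knockout (adjusted p = 0.854), where it was 4.41 without the treated library at 0.04 TPM and 0.96 without the one at 122 TPM.

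Trp53inp1, a nuclear protein that promotes p53 phosphorylation and autophagy, was at 0.54, 0.41, 0, 0 and 0.01 TPM in wild-type controls and at 25.2, 11.6, 28.5 and 3.23 TPM under TGF-β1. With labelled knockout it was low in both groups, at 0.16, 0.24, 0.67, 0.02 and 0 TPM in controls and at 0.48, 1.52 and 0.04 TPM under TGF-β1. The difference was 3.61 ± 0.63 in wild type and 0.39 ± 0.69 with labelled knockout (adjusted p = 0.986).

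Of the other apoptotic members, Ei24, an endoplasmic reticulum protein tied to autophagy, was at 0, 0.02, 0.19, 8.29 and 9.95 TPM in controls labelled knockout and at 6.07, 68.4 and 18.3 TPM under TGF-β1. In wild type it was at 0, 0, 0.02, 15.3 and 19.9 TPM in controls and at 55.4, 18.4, 0 and 29.0 TPM under TGF-β1. Dram1, a lysosomal membrane protein of autophagy, was at 18.4, 0, 0, 10.4 and 5.16 TPM in controls labelled knockout and at 37.3, 29.5 and 10.8 TPM under TGF-β1. In wild type its order was not that one: 16.4, 20.0, 23.5, 32.6 and 10.8 TPM in controls and 49.6, 24.8, 0.38 and 6.48 TPM under TGF-β1. Rps27l, a ribosomal protein paralogue whose reads can be divided with those of Rps27, had the smallest SE of the list and differed by 0.80 ± 0.30 with labelled knockout (adjusted p = 0.744). Aen, a nuclease of apoptotic DNA, ran from 0 to 129 TPM, Apaf1, the apoptosome scaffold, from 0.1 to 21.1 TPM and the death receptor Tnfrsf10b from 0.57 to 26.0 TPM, with the groups overlapping in each.

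The 5 DNA repair members, Ddb2 and Xpc of nucleotide excision damage recognition, the nuclease Ercc5, the translesion polymerase Polk and the ribonucleotide reductase subunit Rrm2b, were low and patchy. They were listed at 0 to 37.6 TPM over all libraries. Ercc5 was at 0, 0.12, 0, 0 and 5.49 TPM in wild-type controls and at 2.62, 2.20, 0 and 0.23 TPM under TGF-β1. Controls labelled knockout were at 8.54, 37.6, 3.45, 1.70 and 0 TPM and the treated ones at 0.06, 0 and 16.8 TPM under TGF-β1. None of the 5 had groups that were separate in either TGF-β1 comparison, and none was at an unadjusted p under 0.05 in any comparison.

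Of the 4 metabolic members, Sesn2, a sestrin that restrains mTORC1 when amino acids are short, was at 0, 0, 12.7, 0 and 1.92 TPM in wild-type controls and at 30.2, 15.6, 19.6 and 35.3 TPM under TGF-β1. With labelled knockout it was at 31.6, 0.03, 0, 0 and 0 TPM in controls and at 13.8, 10.1 and 0 TPM under TGF-β1. Every wild-type TGF-β1 library was above every other library but 1 control labelled knockout. Ak1, an adenylate kinase, was at 0.03, 0, 0, 37.7 and 45.9 TPM in wild-type controls and at 0, 0.98, 0.03 and 4.10 TPM under TGF-β1. It was at 0, 0, 0.15, 0 and 0.02 TPM in controls labelled knockout and at 1.64, 24.3 and 0 TPM under TGF-β1. Ak1 thus came from 2 controls in wild type and from 1 treated library with labelled knockout. Sesn1, the other sestrin, and Fdxr, a mitochondrial ferredoxin reductase, ranged from 0 to 56.7 and from 0 to 38.5 TPM and overlapped between treatments.

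Counted over the list, the wild-type TGF-β1 difference was above 0 in 27 of 31 tested members, against 53.8% of all genes tested, with a median of 1.43 against 0.09 for all genes. Phlda3 and Trp53inp1 were the 2 members called higher at an adjusted p under 0.05, where 0.107% of all genes were called higher. The libraries did not overlap in 6 members, all higher, against 1.80% of all genes. These counts restate the comparison that was known when the list was made, and nothing is read from them. In a fit with the cell cycle mean as covariate, added after the data were seen, 0 members were called and the median was 0.53. Of all genes 4 were called in that fit, against 22 without the covariate, and their median was -0.03. Phlda3 differed there by 6.28 and Trp53inp1 by 3.18.

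**Figure D4:**
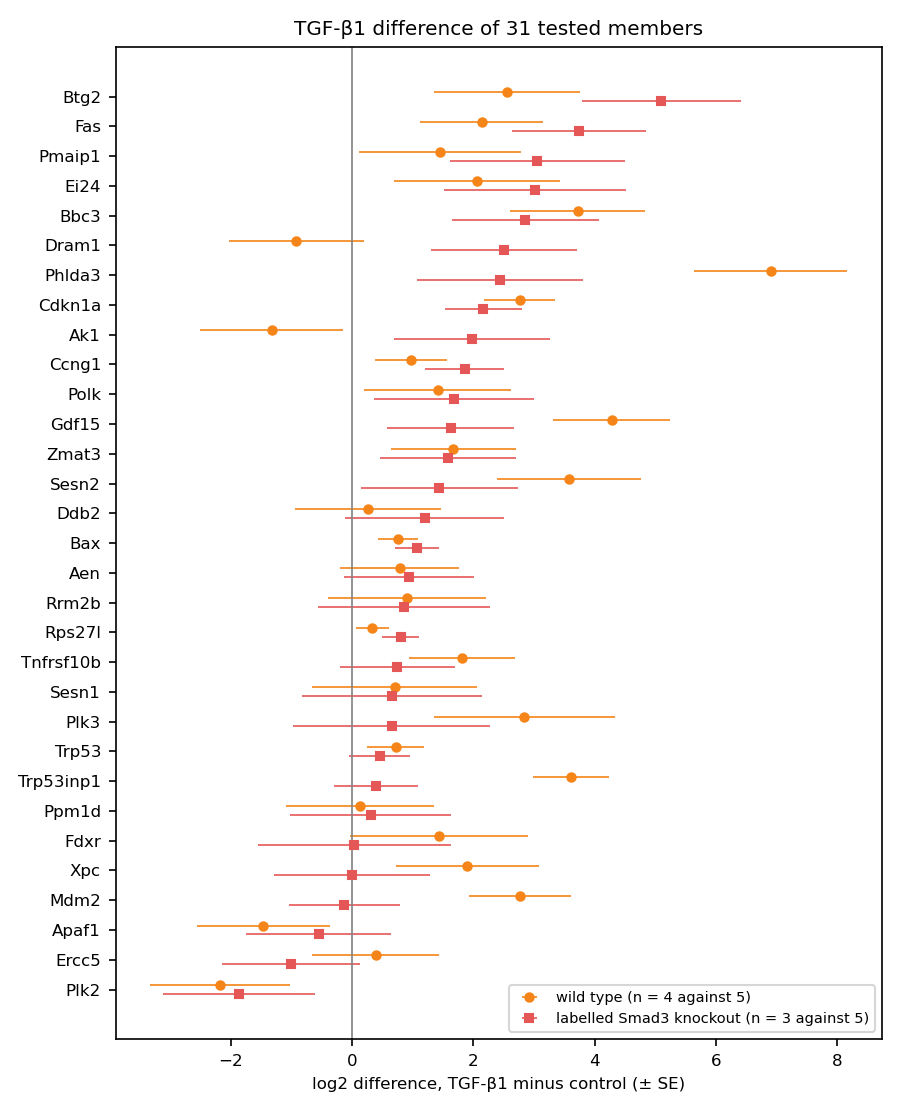
TGF-β1 difference on the log2(TPM + 1) scale (± SE, limma) for the 31 tested members in wild type (circles) and in libraries labelled Smad3 knockout (squares), ordered by the latter. Phlda3, Gdf15, Trp53inp1 and Mdm2 lie further right in wild type, Btg2, Dram1 and Ak1 further right with labelled knockout; the wild-type value of Fas is set against controls all listed at 0 and depends on the pseudocount.

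The same comparison in libraries labelled knockout uses other libraries. No member was called there, where 1 of 12158 genes (0.00823%) was called in either direction. The difference was above 0 in 26 of 31 tested members, against 53.1% of all genes, and its median was 1.07 against 0.07. At an unadjusted p under 0.05, 8 members were higher and 0 lower, against 3.73% and 2.2% of all genes. The 8 were Cdkn1a, Ccng1, Btg2, Bax, Bbc3, Pmaip1, Fas and Rps27l. The libraries did not overlap in Cdkn1a, Btg2 and Fas, against 3.05% of all genes for differences upward. Fas is 1 of the 5 members that passed the filter through treated libraries, so its place in both counts is partly set by the filter. Over the other 26 members, 21 were above 0, 7 were higher at an unadjusted p under 0.05, 2 did not overlap and the median was 0.90. Without any filter on low values all 33 members entered the fit, with 0 called, 26 above 0 and a median of 0.94. Of all genes 5 were called in that fit. With the cell cycle mean as covariate the median was 0.67 with 0 members called, where 0 of all genes were called. By role, 6 of 7 growth arrest members and 11 of 12 tested apoptotic members were above 0, with medians of 1.62 and 1.76. Of the 5 repair members 3 were above 0, with a median of 0.86, and Trp53 with its 2 inhibitors had a median of 0.30. All 4 metabolic members were above 0, with a median of 1.05. These values by role include the 5 members that passed the filter through treated libraries. They are Gdf15 in growth arrest, Fas, Phlda3 and Trp53inp1 in apoptosis, and Ak1 in metabolism. The growth arrest median is the value of Gdf15 itself. Counts and medians by role are thus partly set by the filter, and nothing is read from them.

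No member was called between genotype labels, and these comparisons share libraries with the wild-type TGF-β1 comparison. Since the members were chosen with those wild-type values known, the differences between labels are given as a description. In controls 18 of 31 members were higher with labelled knockout (55.6% of all genes) and 13 lower, with a median of 0.15 against 0.11 for all genes. Of all genes 0.148% were called. Mdm2 was higher by 1.72 ± 0.79, a value that includes 1 wild-type control at 2.32 TPM where the others were at 36.1 to 202 TPM. Dram1 differed by -2.27 ± 1.05. Next in size were Btg2 at -2.13 ± 1.13, Ak1 at -2.13 ± 1.11 (0.04 without the 6 libraries with over 10% of moderate genes at 0) and Ercc5 at 1.85 ± 0.99.

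Under TGF-β1, 17 members were higher with labelled knockout (52.9% of all genes) and 14 lower, and none was called, where 0.156% of all genes were. Trp53inp1 had the largest difference, -3.18 ± 0.72, and its 3 labelled knockout libraries were below all 4 wild-type ones. It had passed the filter mainly through those 4 libraries, in which it was already known to be high. Sesn2 was also lower in every library, at 13.8, 10.1 and 0 against 15.6 to 35.3 TPM, with a difference of -2.19 ± 1.36, or -0.96 without the library at 0. The libraries were separate downward in these 2 members and in 2.34% of all genes, from which nothing is read. Phlda3 differed by -2.96 ± 1.44, and by -0.996 or -4.44 without the treated library at 0.04 or at 122 TPM. Pmaip1 differed by 2.49 ± 1.51. Both had overlapping libraries.

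The difference between the 2 TGF-β1 effects, labelled knockout minus wild type, came from the same fit. It was above 0 in 15 of 31 members and in 48.7% of all genes. None of the 31 members was called, nor was any of the 12158 genes (0%). The value subtracts the wild-type effect that was known when the list was made, so a negative value of a member chosen for a high wild-type effect is no evidence of a smaller response. With that limit, the values were -4.46 ± 1.86 for Phlda3, -3.21 ± 0.93 for Trp53inp1 and -2.90 ± 1.24 for Mdm2. The Mdm2 value includes the wild-type control at 2.32 TPM, far below the others of its group. Phlda3 and Trp53inp1 had also passed the filter only through treated libraries. The values were 3.42 ± 1.64 for Dram1 and 3.30 ± 1.75 for Ak1, and that of Ak1 was -0.45 without the 6 libraries with over 10% of moderate genes at 0. For Cdkn1a the difference of effects was -0.60 ± 0.87, and for Bax it was 0.31 ± 0.49.

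Within groups no relation of Cdkn1a to another measure passed adjustment. After removal of group means, Cdkn1a was compared over the 17 libraries with 6 members and the cell cycle mean, 7 relations in all. The strongest was with Phlda3 (Pearson's r = 0.514, permutation p = 0.0623, adjusted p = 0.436; Spearman's rho = 0.485, permutation p = 0.0616, adjusted p = 0.431). It was 0.406 without the 2 libraries farthest from the median of Cdkn1a. The relation with Bax had r = 0.451 (permutation p = 0.133, adjusted p = 0.466; rho = 0.466, permutation p = 0.125, adjusted p = 0.438), and 0.519 without those libraries. With Mdm2 r was 0.01 and with the cell cycle mean 0.213 (permutation p = 0.97 and 0.474, adjusted p = 0.987 and 0.829; rho = 0.262 and 0.218, permutation p = 0.37 and 0.44, adjusted p = 0.616 for both). With Ccng1, Trp53inp1 and Zmat3 r was 0.335, -0.01 and -0.04 (permutation p = 0.275, 0.987 and 0.896, adjusted p = 0.642, 0.987 and 0.987).

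Other genes of the pathway, taken from lists made with earlier results of these data known, were counted in the same way. Of 20 further p53 targets 19 were in the table and 16 were tested. Their TGF-β1 difference had a median of 0.86 in wild type and 0.59 with labelled knockout, and 0 were called in either. In wild type the widest differences were those of Ccng2, cyclin G2 (4.01 ± 0.99), Ephx1, an epoxide hydrolase (3.65 ± 1.60) and Pidd1, a death-domain adaptor (3.50 ± 1.15). With labelled knockout they were Trp53i13 (3.67 ± 1.41), the spindle protein Psrc1 (3.56 ± 1.95) and Tob1, an antiproliferative relative of Btg2 (3.27 ± 1.21). Of 21 regulators of p53, 17 were tested, with medians of 0.28 in wild type and 0.41 with labelled knockout and 0 called. The damage kinase Atm differed by 2.86 ± 1.14 and the p53 kinase Hipk2 by -2.59 ± 1.11 in wild type. The damage kinase Chek2 differed by 2.28 ± 1.17 with labelled knockout. The damage response scaffold Trp53bp1 differed by -2.51 ± 1.39 in wild type and by 2.16 ± 1.52 with labelled knockout. Of 15 tested genes of intrinsic apoptosis outside the list, the medians were 0.05 in wild type and -0.17 with labelled knockout, and 0 were called. Bcl2, the survival protein that opposes Bax, differed by 3.20 ± 0.98 in wild type. The 24 cell cycle genes had medians of 2.17 in wild type and 1.86 with labelled knockout, and 0 were called. Their part in the members' differences was examined only by the covariate fit given above. That covariate did not overlap between treatments with labelled knockout and overlapped little in wild type. The fit therefore cannot tell the cell cycle genes from the treatment, and nothing is read from it.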

How the data were processed

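Per the labels' protocols, libraries followed SMART-seq2, and per the submitters' processing notes the tools were FastQC, Trim Galore and RSEM with build mm9, with no versions given. The deposited TPM values, computed by the authors, correct for transcript length and keep no depth, so depth per library is unknown and no counting interval is given. Groups came from the sample titles. Members, lists and tests were chosen with earlier results of these data known. Values were taken as log2(TPM + 1), so a difference understates the change of low genes. Of 37620 genes, 32897 had a symbol and 12158 reached 1 TPM in at least 3 of 17 libraries. These were fitted with limma 3.58.1 (R 4.3.3; trend) with 4 group means, and p-values were Benjamini-Hochberg adjusted over all genes tested (called under 0.05). The fit was tested on simulated data with added shifts and normally distributed noise, with negative values set to 0. That test does not show how the fit behaves on members as patchy as these. Smad3 was compared by an exact permutation test, and the relations of Cdkn1a by 100000 permutations within groups. Library values are given for Trp53, Mdm2, Cdkn1a, Ccng1, Phlda3, Trp53inp1, Bax, Gdf15 and Zmat3, for called members, and for the 4 largest differences per comparison among members averaging 10 TPM in a compared group; Plk2 and the medians by role were added after their values were seen. Pathway genes outside the list were named for the 3 largest differences of a list. Promoter windows are from RefSeq GRCm38.p6 and were not set against mm9 coordinates. Alternatives covered the pseudocount, the filter, scaling, covariates, the libraries fitted and the replicate numbers.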

Additional observations from a re-analysis of the deposited data

Results flagged for a closer look

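The 3 TGF-β1 libraries labelled knockout were not checked for an outlying library, and the other groups were checked on the log2(TPM + 1) scale. In 8 of the 53 sets of a member's libraries within 1 labelled group that were checked, 1 library stood far from the rest by Dixon's test. Its rate of about 1 set in 20 by chance holds for normally distributed values. Sets with most libraries listed at or near 0 are not of that kind, so the 8 cannot be set against that rate. All 8 flagged sets are of genes listed at or near 0 in the other libraries, except Btg2 in wild-type TGF-β1 libraries. There, library 2 was at 8.17 TPM and the others were at 52.7 to 69.0 TPM. In controls labelled knockout, Btg2 was at 6.08 TPM in library 1 and at most at 0.02 TPM in the others. Bbc3 was at 12.2 TPM in wild-type control 1 and at most at 0.13 TPM in the others. Pmaip1 was at 14.2 TPM in wild-type control 2, with the others at 0.06 TPM or less. Ercc5 was at 5.49 TPM in wild-type control 5, with the others at 0.12 TPM or less. In controls labelled knockout, Sesn2 was at 31.6 TPM in library 1, where the others were at 0.03 TPM or less. Fas was at 1.73 TPM and Ak1 at 0.15 TPM in library 3 of that group, with the others at 0 for Fas and at most 0.02 TPM for Ak1.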

How the results depend on the processing

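TPM keeps no depth and many moderate genes are listed at 0, so single-library values of low members are uncertain, and groups of 3 to 5 libraries limit every test. In wild type the members called under TGF-β1, 2 as reported, were 1 with a pseudocount of 0.1, with no filter on low values or in a fit of the compared groups alone. They were 0 without the 6 libraries with over 10% of moderate genes at 0 or with the cell cycle mean as covariate, an alternative added after the data were seen, and 1 to 3 when 1 library was left out. In those 2 fits 5 and 4 of all genes were called, against 22 as reported. Phlda3 differed in them by 7.04 and 6.28 and Trp53inp1 by 2.92 and 3.18, against 6.91 and 3.61 as reported. They were 3 with a filter of 5 TPM or the number of detected genes as covariate, where Cdkn1a was called too (2.76 and 2.93), as it was under quantile normalization (2.74), which lost Trp53inp1 (3.26). The median member difference in wild type, 1.43, was 2.14 with a pseudocount of 0.1, 0.652 with 10, 0.527 with the cell cycle covariate and 1.09 to 2.21 with 1 library left out (2.21 without wild-type TGF-β1 library 3). With labelled knockout the median of 1.07 was 1.58 and 0.537 with those pseudocounts, and 0 members were called under each alternative run. Quantile normalization moved the median of all genes from 0.09 to -0.06 in wild type and from 0.07 to -0.06 with labelled knockout, and the member medians were then 1.21 and 1.06. Between labels under TGF-β1 the median of 0.232 was -0.444 without the 6 sparse libraries, and -0.341 (without wild-type TGF-β1 library 3) to 0.281 with 1 library left out; the members called there ranged from 0 to 1 with 1 left out (Trp53inp1, -3.76, without wild-type TGF-β1 library 4, a comparison whose wild-type values were known when the list was made). The Smad3 difference under TGF-β1 was 1.43 to 3.69 with 1 library left out, where fewer libraries raise the smallest p possible. The Mdm2 difference with labelled knockout, -0.14, turned to 0.0594, 0.0396 and 0.0784 without control 2, treated library 1 or treated library 3, and ranged from -0.53 to 0.0784. Without the 6 sparse libraries Ak1 turned to 0.0362 between controls and -0.45 for the difference of effects. The relation of Cdkn1a turned sign with Mdm2 (r = -0.000845) and Trp53inp1 (0.0525) at a pseudocount of 0.1, with Zmat3 at 10 (0.0787), and with Trp53inp1 (0.22) and Zmat3 (0.0797) under quantile normalization. The cause was not tested for any of these.

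Replicate numbers did not pair the libraries: the 22 same-numbered pairs had deviation correlations of -0.08 to 0.02, and 0 libraries correlated best with their own number. With the replicate block 0 members were called in wild type and 0 with labelled knockout, with medians of 1.13 and 1.19. Of all genes 11 and 0 were called with that block, against 22 and 1 without it. Phlda3 differed by 6.73 and Trp53inp1 by 3.55 in wild type with the block.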
